A study of Homo sapiens with 9 samples.

Results

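The genes described here are 35 genes of glucose breakdown and of the response to low oxygen, out of 78986 genes listed in the table of all 9 libraries. They were chosen by name: 19 encode the glucose transporter SLC2A1, the glycolytic enzymes and their regulators (the glycolysis members), and 16 encode HIF1A and other genes known to respond to it (the other HIF members). RNA was sequenced from stable HEK293T lines, human embryonic kidney cells that carry the SV40 large T antigen beside their own p53, infected with lentivirus and kept in puromycin. The 3 groups of 3 biological replicates expressed WT p53, G245S p53 (a structural mutant of the DNA-binding domain) or R273H p53 (a mutant of a residue that touches DNA). All groups were therefore p53-overexpressing lines grown in the same medium, and none of the labels names a low oxygen treatment. The methods describe no isolation of single clones and do not say whether replicates came from separate infections, so p-values measure the spread between these libraries.

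Glycolysis turns glucose into pyruvate in the cytosol, and lactate dehydrogenase turns pyruvate into lactate. When oxygen is scarce, the prolyl hydroxylases that mark HIF1A for destruction stop working, HIF1A pairs with ARNT, and the pair binds a short core sequence near its target genes. The targets raise glucose uptake and glycolysis, hold pyruvate back from the mitochondria and remove mitochondria, and WT p53 is known for the opposite pull on glucose use, in part through TIGAR.

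Promoter sequence of 8 members whose levels are described below is shown because each holds a core of the kind HIF1A binds. The core searched was ACGTG on both strands, so it reads CACGT where it lies on the other strand, and CACGTG holds both readings at the same place. Windows ran from 250 bases before to 50 bases after a RefSeq gene start (GRCh38.p14). Each stretch below has 25 bases of the gene's own strand around the match nearest to the start among those lying upstream of it, with the matches in capitals.

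BNIP3 (chr10:131982042-131982066, minus strand): cacgcgccgCACGTGccacacgcac
PDK1 (chr2:172556072-172556096, plus strand): cCACGTccctCACGTaccactcggc
ANKRD37 (chr4:185396688-185396712, plus strand): gtgtttgtgtACGTGcggccgtggc
P4HA1 (chr10:73096938-73096962, minus strand): tgatcgagctCACGTagcgagggct
CA9 (chr9:35673900-35673924, plus strand): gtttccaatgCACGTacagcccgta
HK2 (chr2:74834069-74834093, plus strand): tgggcgtgcgCACGTcactgatccg
LDHA (chr11:18394480-18394504, plus strand): tgggttcccgCACGTccgccggccc
PGK1 (chrX:78104055-78104079, plus strand): acggaagccgCACGTctcactagta

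The core was found in a window of 20 of the 32 members that had one, 62.5%, against 24.9% of 27305 genes. Some genes have several start sites, and per window the shares were 41.4% of 58 member windows and 21.4% of all 35116. Glycolysis members (12 of 19) and other HIF members (8 of 13) held it about as often. SLC2A1 and KDM3A had no match, which says only that these letters are not in those windows. Promoter windows of VEGFA, NDRG1 and BNIP3L were not used here.

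The authors deposited expected counts, reads counted on each gene with reads that match several genes shared as fractions. The level of a gene is its count after TMM scaling of the libraries, in CPM, and where values of a group are listed they stand in the order of the replicates. Totals lay between 7325514 and 9667306 counts in 8 libraries, where a floor of 3 counts equals 0.315 to 0.407 CPM. WT replicate 3 held 1486315 counts (floor 1.94 CPM) and was left out of the fits, a rule on depth alone. It also stood apart in kind, with the keratins KRT19 at 31.1 CPM and KRT8 at 50.5 CPM against at most 1.36 and 12.1 CPM in any other library. Its values are given for each member shown in full. Of the markers of HEK293 cells, NEFM (126 to 194 CPM), NEFL, LHX1, PAX2 and INA were found in every library, and of the endothelial and leukocyte markers each but CD79A stayed at or under 0.950 CPM in the fitted libraries. The labels call the line HEK 293 and epithelial, and KRT18 was at 59.3 CPM or more while EPCAM and CDH1 were at 3.39 CPM or less in the fitted libraries. Of the p53 targets MDM2, PHLDA3, DDB2 and FDXR, each was lower in both mutants (edgeR's adjusted p between 3.14e-06 and 0.00325). As these are bulk samples, fewer cells making a transcript and less of it per cell cannot be told apart.

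Levels of the members spanned a wide range in these cells. Per kb of annotated length and as the mean of the 8 fitted libraries, GAPDH (773 CPM per kb), ENO1 (509 CPM per kb) and TPI1 (295 CPM per kb), enzymes of the lower part of glycolysis, were the highest. Without division by length, ENO1 (2654 CPM) lay above GAPDH (1853 CPM). Their order per kb thus rests on annotated lengths of 5216 and 2396 bases, and whether reads scale with that length was not tested. ALDOA, LDHA, PGAM1, PGK1, PKM and GPI followed at between 35.1 and 119.7 CPM per kb, and every other member lay lower. The highest of the other HIF members was the mitophagy receptor BNIP3 (20.1 CPM per kb), and the lowest tested members were ANKRD37 (0.868 CPM per kb) and PFKFB4 (0.611 CPM per kb).

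**Figure D1:**
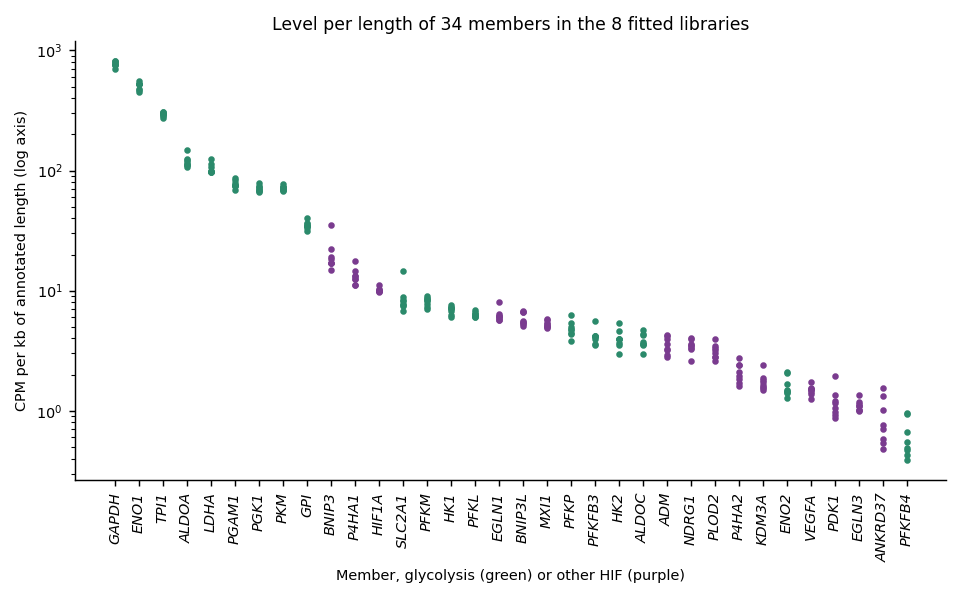
Level of each of the 34 tested members in CPM per kb of annotated length (log axis), with 1 point for each of the 8 fitted libraries, glycolysis members in green and other HIF members in purple. GAPDH and ENO1 lie at the top and PFKFB4 at the bottom, and for BNIP3, SLC2A1 and PDK1 a single point, G245S replicate 3, lies above the rest.

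Where 2 genes encode forms of the same enzyme, the same form was the higher one per kb in all 8 fitted libraries. HK1 was 1.76 ± 0.288 times HK2 (SD, n = 8 libraries), ALDOA was 31.5 ± 3.59 times ALDOC, and ENO1 was 323 ± 49.2 times ENO2, the neuronal form. Among the phosphofructokinases, PFKM was 1.69 ± 0.200 times PFKP, and PFKL was 0.788 ± 0.0706 times PFKM. Prolyl hydroxylases use oxygen as a substrate. Of those that act on HIF1A, EGLN1 was 5.63 ± 0.33 times EGLN3, and of those that act on collagen, P4HA1 was 6.41 ± 0.856 times P4HA2. PFKFB3 was 7.46 ± 2.27 times PFKFB4 and BNIP3 was 3.39 ± 0.812 times BNIP3L. The last ratio reached 5.32 in its highest library and was 2.78 in its lowest. All these ratios rest on annotated lengths, and their SDs do not cover error in them. In CPM alone, P4HA1 was at 41.0 and P4HA2 at 21.2, and HK1 was at 47.6 and HK2 at 23.8. PFKL (56.7 CPM) and PFKM (58.8 CPM) were close. PFKL was the higher in WT replicate 1 (56.9 against 52.7 CPM) and PFKM in G245S replicate 3 (65.9 against 59.2 CPM). Reads of some members could be shared with near-identical copies. Pseudogenes named after a member held at most 1.52% of the reads of a member and its pseudogenes together (BNIP3) and 0.551% for GAPDH, and copies under other names were not counted. One of these is PGAM4, whose sequence is close to that of PGAM1. PGAM1 was 5.21 ± 0.242 times PGAM4 per kb, and how the counting split reads between them was not tested, so both levels are uncertain.

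A single library, G245S replicate 3, stood apart from the rest in these genes, as was already known when the genes were chosen and this library was picked out to be shown separately. Of the 34 tested members, 29 were higher there than in both other G245S libraries, against 29% of 16277 genes, and 21 were highest there among the 8 fitted libraries, against 11.7% of genes. Its median difference from the mean of the other G245S libraries on the log2 scale was 0.25 for glycolysis members and 0.40 for other HIF members, and -0.015 over all genes. No other fitted library lay so far out in both sets. G245S replicate 2, whose comparison includes that library, was at -0.14 and -0.27, and R273H replicate 2 was at -0.15 and -0.036. The depth of G245S replicate 3 (8057257 counts), its TMM factor (1.00) and its mitochondrial share (5.55%) lay within the range of the other fitted libraries, and whether any handling of that culture differed was not tested.

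**Figure D2:**
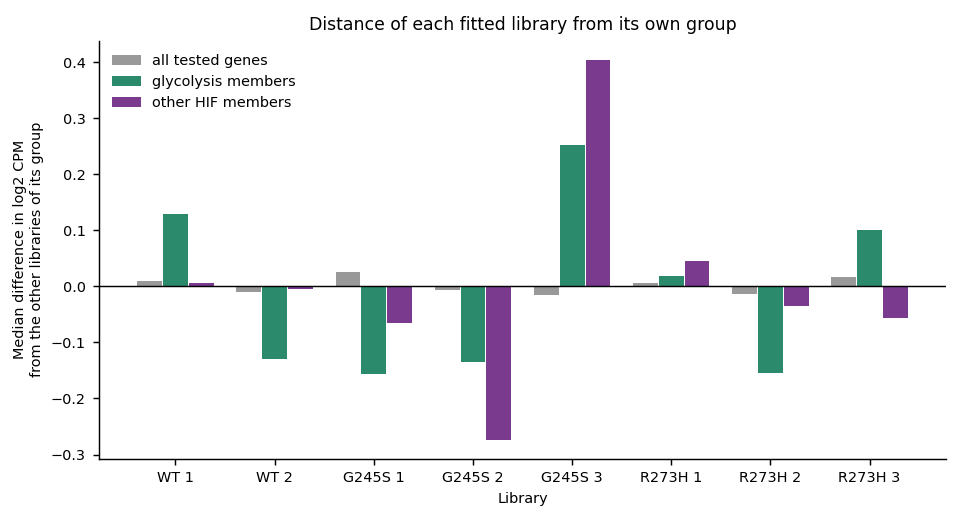
Median difference in log2 CPM of each of the 8 fitted libraries from the mean of the other fitted libraries of its group, for all tested genes (grey), glycolysis members (green) and other HIF members (purple). G245S replicate 3 has the tallest bars, 0.25 and 0.40, while every grey bar lies near 0.

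SLC2A1, the main glucose transporter of dividing cells (chromosome 1, 42925353 to 42958893, GRCh38), was at 58.4 and 54.0 CPM in WT, 51.3, 50.6 and 97.3 CPM in G245S and 49.4, 54.8 and 45.2 CPM in R273H. WT replicate 3 was at 51.8 CPM. All libraries but G245S replicate 3 lay within 45.2 to 58.4 CPM, and that library was 1.91 times the mean of the other G245S libraries. Among 11643 genes with a mean of at least 5 CPM, SLC2A1 ranked 15 by how far that library lay above the other G245S libraries. The groups overlapped, and its log2 fold change in G245S was 0.23 (standard error 0.218, edgeR's adjusted p = 0.901) with that library and -0.16 (standard error 0.101, edgeR's adjusted p = 0.899) without it.

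Hexokinases trap glucose in the cell, and HK2 is the form that HIF raises. HK2 was at 27.5 and 23.6 CPM in WT, 23.5, 23.6 and 31.9 CPM in G245S and 20.9, 17.6 and 21.9 CPM in R273H, with WT replicate 3 at 19.4 CPM. Every R273H library was below every other fitted library, though WT replicate 3 lay among them. Its log2 fold change was -0.34 in R273H against WT (standard error 0.123, edgeR's adjusted p = 0.703) and 0.03 in G245S against WT. HK1, the form found in most tissues, had log2 fold changes of 0.06 in both mutants and was not higher in G245S replicate 3 (0.951 times the other G245S libraries).

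The next committed step is run by phosphofructokinase, whose activator fructose 2,6-bisphosphate is made by PFKFB enzymes. PFKFB3 was at 25.3 and 22.2 CPM in WT, 25.8, 25.8 and 34.3 CPM in G245S and 24.1, 21.4 and 25.5 CPM in R273H, with WT replicate 3 at 19.4 CPM. All G245S libraries lay above all WT libraries, 2 of them narrowly, and the log2 fold change of 0.25 (standard error 0.140) had edgeR's adjusted p of 0.790. The platelet-type PFKP was at 41.8 and 33.97 CPM in WT, 39.0, 34.6 and 49.2 CPM in G245S and 36.8, 29.8 and 37.6 CPM in R273H, and WT replicate 3 was at 37.5 CPM. G245S replicate 3 was the highest library and all groups overlapped. PFKL and PFKM differed little in that library from the other G245S libraries, by 0.04 and 0.12 on the log2 scale against 0.42 for PFKP.

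PFKFB4, the least abundant glycolysis member, was at 5.89 and 3.33 CPM in WT, 2.62, 2.86 and 5.69 CPM in G245S and 3.00, 4.07 and 2.39 CPM in R273H. WT replicate 3 was at 2.59 CPM, near its floor. G245S replicate 3 was 2.07 times the other G245S libraries but no higher than WT replicate 1, so the groups overlapped. Its log2 fold changes were -0.34 in G245S (standard error 0.338) and -0.57 in R273H (standard error 0.291, edgeR's adjusted p = 0.861).

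ALDOA, which splits fructose bisphosphate, was at 466 and 426 CPM in WT, 427, 438 and 569.7 CPM in G245S and 449.8, 412 and 478 CPM in R273H. LDHA, the lactate dehydrogenase subunit that HIF raises, was at 679 and 591 CPM in WT, 586, 593 and 757 CPM in G245S and 596, 589.5 and 651 CPM in R273H. In both genes G245S replicate 3 was the highest library, at 1.32 and 1.28 times the other G245S libraries, and all groups overlapped.

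WT replicate 3 was the lowest of all 9 libraries for both, at 311 CPM for ALDOA and 401 CPM for LDHA. PGK1, which makes the first ATP of the pathway, was at 406 and 363 CPM in WT, 367, 393 and 430.1 CPM in G245S and 378, 377 and 396 CPM in R273H, and at 309 CPM in WT replicate 3. Apart from that library the spread was small and the groups overlapped, with log2 fold changes of 0.03 and 0.00. ENO2 was at 6.24 and 6.15 CPM in WT, 7.14, 6.38 and 8.91 CPM in G245S and 8.99, 5.97 and 5.50 CPM in R273H, with WT replicate 3 at 7.77 CPM. Its highest library was in R273H, not in G245S. The remaining lower enzymes TPI1, GAPDH, PGAM1, ENO1, PKM and ALDOC differed in G245S replicate 3 from the other G245S libraries by 0.05 to 0.25 on the log2 scale, and GPI by 0.18.

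HIF1A, the oxygen-regulated subunit and the regulator of the list and not one of its targets, was at 51.2 and 51.0 CPM in WT, 51.6, 51.3 and 50.6 CPM in G245S and 52.3, 53.4 and 57.4 CPM in R273H, with WT replicate 3 at 47.9 CPM. Its mRNA in G245S replicate 3 lay at the level of the other G245S libraries. Every R273H library was above every other library, by 0.09 on the log2 scale against WT (standard error 0.0883, edgeR's adjusted p = 0.971). HIF1A is controlled mainly through the stability of the protein, which these counts do not measure.

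BNIP3, a receptor that brings mitochondria to autophagy (chromosome 10, 131967684 to 131981967, GRCh38), was at 89.9 and 76.7 CPM in WT, 74.0, 69.2 and 144 CPM in G245S and 60.6, 69.2 and 68.8 CPM in R273H. WT replicate 3 was at 77.7 CPM. G245S replicate 3 was 2.01 times the other G245S libraries, rank 10 of the 11643 genes, while the other G245S libraries lay below WT. Every R273H library was below every WT library, by -0.33 on the log2 scale (standard error 0.0973, edgeR's adjusted p = 0.499), a group mean of 66.2 ± 4.84 CPM (SD, n = 3) against 83.3 ± 9.38 CPM (SD, n = 2).

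Its relative BNIP3L, which has the same role and clears mitochondria from maturing red cells, was at 27.7 and 28.2 CPM in WT, 22.9, 22.3 and 27.7 CPM in G245S and 22.0, 23.3 and 21.3 CPM in R273H, with WT replicate 3 at 27.2 CPM. All R273H libraries and the other G245S libraries lay below all WT libraries, and G245S replicate 3 reached the edge of WT. It differed from WT on the log2 scale by -0.22 in G245S (standard error 0.120, edgeR's adjusted p = 0.795) and -0.33 in R273H (standard error 0.107, edgeR's adjusted p = 0.583).

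PDK1 is the kinase that shuts off pyruvate dehydrogenase and so holds pyruvate back from mitochondria (chromosome 2, 172555373 to 172608669, GRCh38). It was at 17.8 and 17.3 CPM in WT, 20.0, 14.4 and 28.9 CPM in G245S and 13.7, 12.9 and 15.8 CPM in R273H, with WT replicate 3 at 16.8 CPM. R273H lay below all WT libraries, and G245S replicate 3 was 1.68 times the other G245S libraries. The log2 fold change was -0.31 in R273H against WT (standard error 0.128, edgeR's adjusted p = 0.775) and -0.57 in R273H against G245S (standard error 0.191, edgeR's adjusted p = 0.934), the latter -0.28 without G245S replicate 3.

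ANKRD37, a small ankyrin-repeat protein and a known HIF target, was at 3.47 and 2.31 CPM in WT, 1.57, 1.30 and 2.97 CPM in G245S and 1.73, 1.22 and 1.08 CPM in R273H. WT replicate 3 was at 4.53 CPM. These are few reads, 130 over the 8 fitted libraries, and the value of G245S replicate 3 lay within WT. Every R273H library lay below every WT library, with the lowest log2 fold change of any member, -1.09 (standard error 0.343, edgeR's adjusted p = 0.547). CA9, the cell-surface carbonic anhydrase often used as a marker of low oxygen, was at 0.116 and 0.513 CPM in WT, 0.315, 0.781 and 0.371 CPM in G245S and 0.231, 1.22 and 0.478 CPM in R273H, with WT replicate 3 at its floor. It was the only member that did not pass the filter on low counts, with 32 reads over the 8 libraries, so no difference in it was detectable at this depth.

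**Figure D3:**
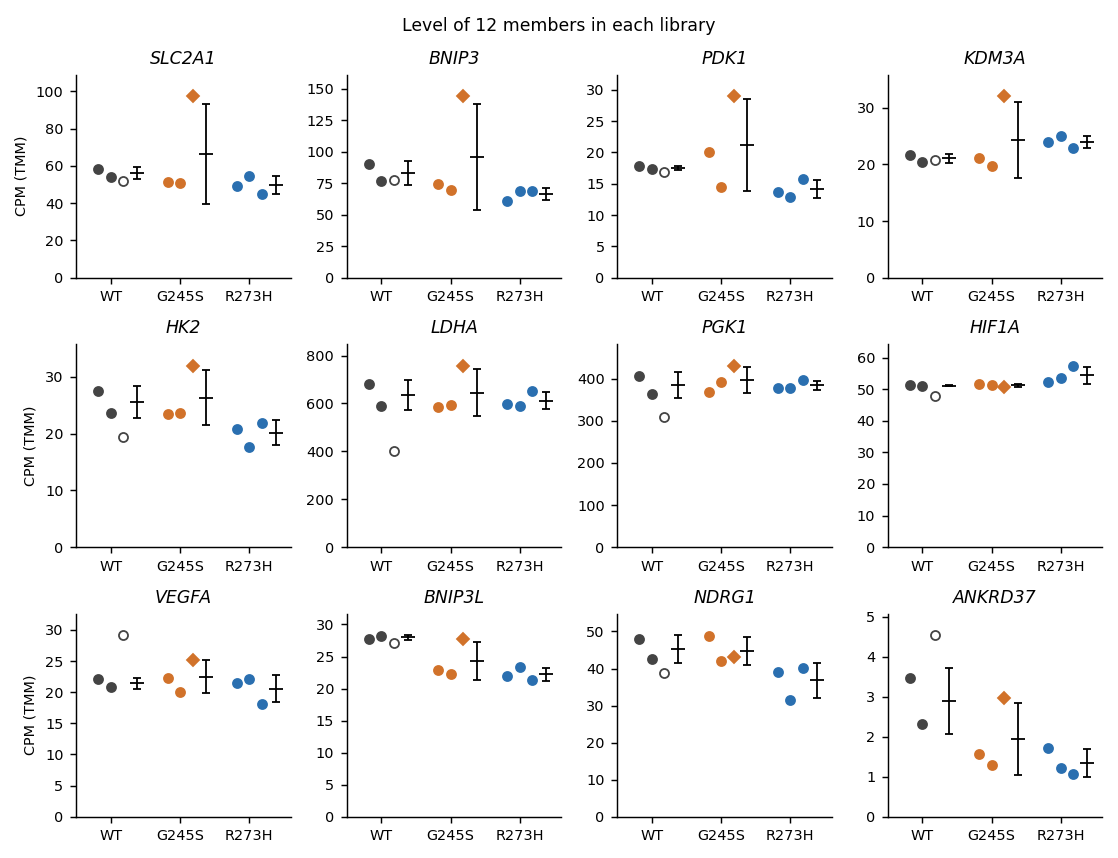
Level in CPM (each axis from 0) of 12 members in each library, WT in grey, G245S in orange and R273H in blue, with mean ± SD of the fitted libraries beside each group. The orange diamond is G245S replicate 3, at 97.3 CPM for SLC2A1 and 144 CPM for BNIP3 against 51.3 and 74.0 CPM or less in the other G245S libraries, and the open circle is WT replicate 3, not in the mean.

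VEGFA and ADM encode secreted factors that act on blood vessels. VEGFA was at 22.1 and 20.8 CPM in WT, 22.2, 20.0 and 25.2 CPM in G245S and 21.4, 22.1 and 18.05 CPM in R273H, and WT replicate 3 was the highest library at 29.1 CPM. ADM was at 7.51 and 9.74 CPM in WT, 6.82, 6.51 and 8.29 CPM in G245S and 9.91, 9.22 and 7.53 CPM in R273H, with WT replicate 3 at 8.41 CPM. The groups overlapped for both genes, and log2 fold changes against WT lay between -0.27 and 0.06.

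EGLN1 and EGLN3 are oxygen sensors that mark HIF1A and are themselves HIF targets, closing a loop. EGLN1 was at 30.5 and 32.0 CPM in WT, 32.4, 30.6 and 43.0 CPM in G245S and 34.1, 32.8 and 33.2 CPM in R273H, with WT replicate 3 at 23.3 CPM. KDM3A, a histone demethylase, was at 21.6 and 20.5 CPM in WT, 21.1, 19.8 and 32.0 CPM in G245S and 24.0, 25.1 and 22.9 CPM in R273H, with WT replicate 3 at 20.7 CPM. For both genes G245S replicate 3 was the highest library (1.37 and 1.57 times the other G245S libraries) and every R273H library lay above every WT library. R273H differed from WT by 0.10 for EGLN1 and 0.19 for KDM3A on the log2 scale (standard errors 0.0976 and 0.111, edgeR's adjusted p = 0.972 and 0.922).

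P4HA1, P4HA2 and PLOD2 hydroxylate collagen. P4HA2 was at 19.6 and 24.2 CPM in WT, 24.3, 17.2 and 28.1 CPM in G245S and 18.8, 16.4 and 21.2 CPM in R273H, with WT replicate 3 at 12.9 CPM. All groups overlapped in it. P4HA1, outside the rule for members shown in full and named after its values were seen, was at 41.3 and 38.5 CPM in WT, 45.0, 40.9 and 54.3 CPM in G245S and 38.5, 34.7 and 34.8 CPM in R273H, with WT replicate 3 at 29.1 CPM. R273H lay below G245S in every library by -0.36 on the log2 scale (standard error 0.104, edgeR's adjusted p = 0.921), -0.23 without G245S replicate 3. The collagens COL1A1, COL1A2 and COL3A1 also differed between libraries (COL1A2 from 9.34 to 50.5 CPM). With DCN and LUM they make up 5 fibroblast markers, of which 4 were tested and 0 passed edgeR's threshold. The median log2 fold change of these markers was 0.68 in R273H against WT and -0.23 in G245S against WT. In R273H against G245S it was 0.80, with 4 of 4 above 0. The part of these markers in the levels of P4HA1, P4HA2 and PLOD2 was not tested.

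NDRG1, a stress-response gene known to be induced by low oxygen and also named after its values were seen, was at 47.9 and 42.6 CPM in WT, 48.9, 41.9 and 43.0 CPM in G245S and 39.0, 31.5 and 40.2 CPM in R273H, with WT replicate 3 at 38.8 CPM. It was not higher in G245S replicate 3 than in the other G245S libraries (0.948 times). R273H lay below the fitted WT libraries, with a log2 fold change of -0.29 (standard error 0.110, edgeR's adjusted p = 0.739), although WT replicate 3 lay within R273H. Of the members not listed in full, EGLN3 (0.41) and PLOD2 (0.40) were higher in G245S replicate 3 than in the other G245S libraries on the log2 scale, and MXI1, a MYC antagonist, lay level with them (0.04).

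**Figure D4:**
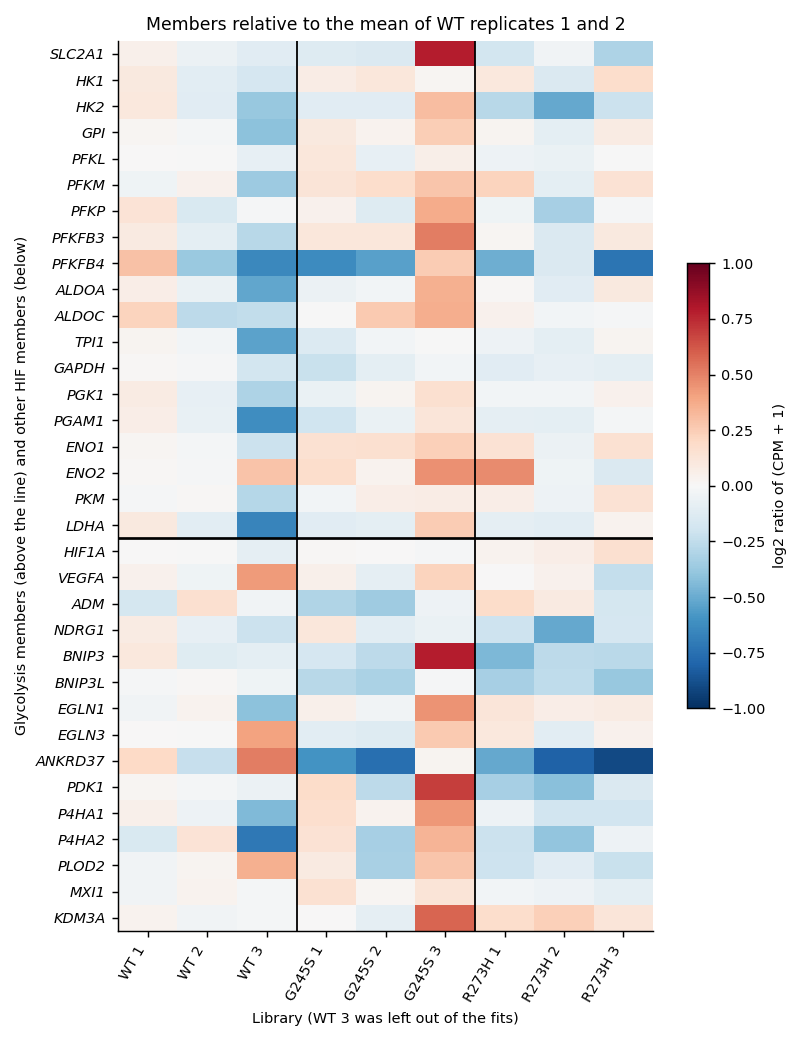
log2 ratio of CPM + 1 to the mean of WT replicates 1 and 2 for the 34 tested members (rows, glycolysis members above the line) in all 9 libraries (columns), red higher and blue lower. The column of G245S replicate 3 is red for most members, with SLC2A1, BNIP3 and PDK1 the deepest, and that of WT replicate 3 is blue for many glycolysis members, with red for VEGFA and ANKRD37.

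Against WT p53, no member passed the threshold in G245S: 0 of 34 tested members had an edgeR adjusted p under 0.05, against 0.126% of 15893 genes, and DESeq2 called 0 members as well. At an unadjusted p under 0.05, 0 were higher and 0 lower, against 3.35% and 3.3% of genes. The median log2 fold change was 0.058 for the 19 glycolysis members (15 above 0) and 0.060 for the 15 other HIF members (10 above 0), beside 0.0034 over all genes. Those signs depended most on a single library. Without G245S replicate 3 the medians were -0.038 (8 above 0) and -0.063 (2 above 0), and 15 of the 34 members changed sign. At an unadjusted p under 0.05, 4 members were then lower (PFKFB4, BNIP3, BNIP3L and ANKRD37) and 0 higher. Of all genes, 5.59% reached that level in either direction. All G245S libraries lay above all fitted WT libraries for GPI, PFKM, PFKFB3, ENO1 and ENO2, 5 of the 34 members against 12.8% of genes, and below them for GAPDH and BNIP3L, against 9.19%.

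In R273H against WT, 0 of 34 tested members passed edgeR's threshold, against 0.137% of 16022 genes, and DESeq2 called 0. At an unadjusted p under 0.05, 6 members were lower (HK2, NDRG1, BNIP3, BNIP3L, ANKRD37 and PDK1) and 0 higher, against 3.33% and 2.78% of genes. The smallest adjusted p of a member was 0.499. Glycolysis members had a median log2 fold change of 0.00, with 9 of 19 below 0. Other HIF members had a median of -0.14, with 10 of 15 below 0, beside 0.0023 over all genes, and every R273H library lay below every fitted WT library for NDRG1, BNIP3, BNIP3L, ANKRD37, PDK1 and PLOD2, and for HK2, PFKL and GAPDH of the glycolysis members, against 11% of genes. HIF1A, EGLN1 and KDM3A lay above in every library, against 9.64%. With all 3 WT libraries the medians were 0.055 and -0.14, and 11 of 15 other HIF members were below 0. The comparisons of each mutant share the WT libraries, so their values are not independent.

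R273H was also compared with G245S directly. No member and no other gene passed (0 of 15614 genes, 0%, with 741 genes at an unadjusted p under 0.05 in edgeR, and 1 gene, not a member, called by DESeq2). At an unadjusted p under 0.05, 5 members were lower in R273H (HK2, NDRG1, BNIP3, PDK1 and P4HA1) and 0 higher, against 2.46% and 2.29% of genes. Without G245S replicate 3, 2 were lower (NDRG1 and P4HA1) and 2 higher (ADM and KDM3A), against 4.56% of genes in either direction. Medians were -0.085 for glycolysis members (15 of 19 below 0) and -0.15 for other HIF members (12 of 15 below 0), beside -0.0048 over all genes. Without G245S replicate 3 they were -0.013 and -0.066, and 9 members changed sign. R273H lay below G245S in every library for HK2, PFKFB3, ENO1, NDRG1, BNIP3, P4HA1 and MXI1, against 5.55% of genes, and above it for HIF1A, against 3.55%. For P4HA1 and MXI1 all G245S libraries lay above the mean of the fitted WT libraries and all R273H libraries below it, against 0.909% of genes, and 0 members showed the reverse, against 0.541%. In both genes the libraries of each mutant still overlapped the fitted WT libraries. With no filter on low counts, 4 members passed edgeR's threshold here (SLC2A1, BNIP3, PDK1 and P4HA1), each lower in R273H. Over all genes, 0.346% of 36147 passed in that setting. The log2 fold changes of these members, in that order, were -0.41, -0.53, -0.58 and -0.37 there. With the filter they were -0.40, -0.52, -0.57 and -0.36. Their standard errors were 0.0931, 0.0899, 0.127 and 0.0986 with no filter, against 0.193, 0.202, 0.191 and 0.104 with it. With the filter, leaving out G245S replicate 3 moved the log2 fold change from -0.40 to -0.013 for SLC2A1 and from -0.52 to -0.093 for BNIP3.

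**Figure D5:**
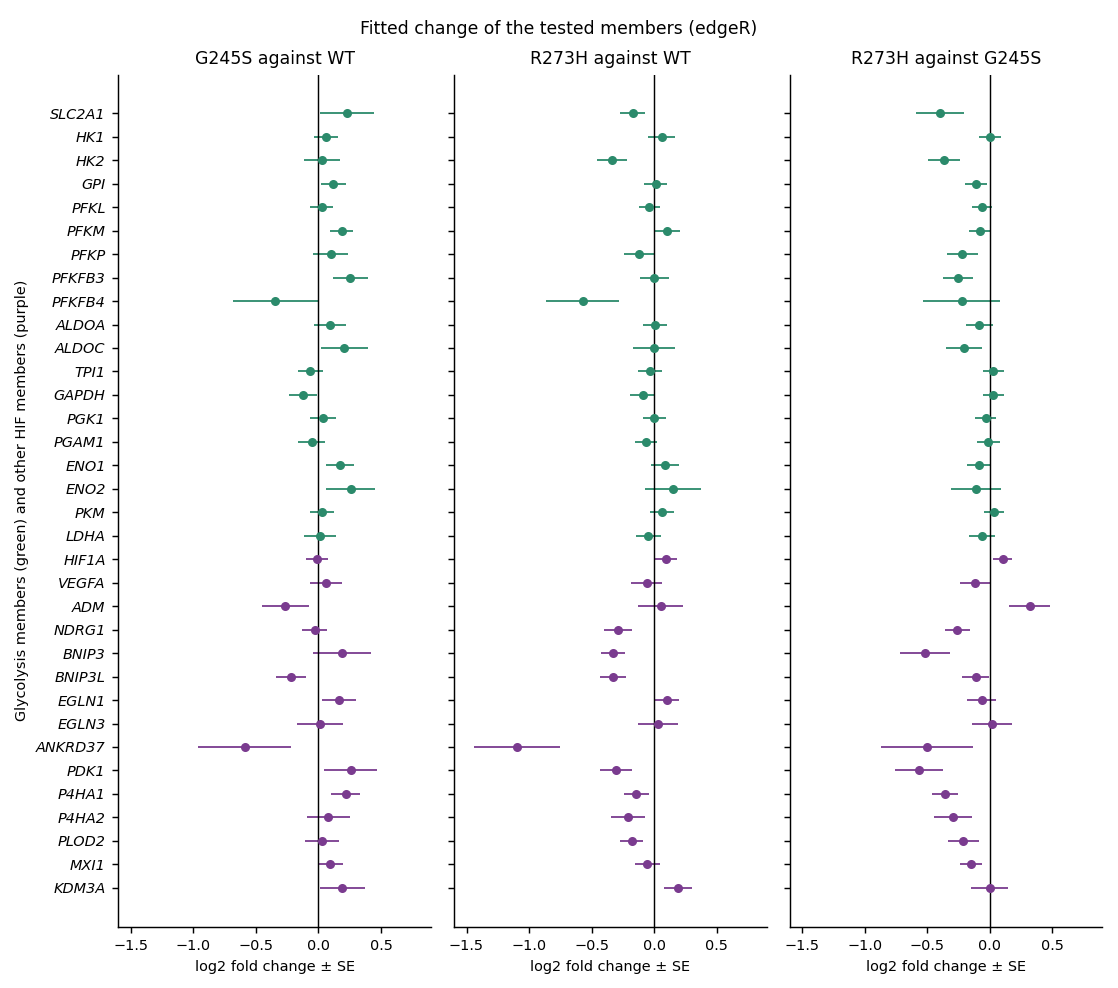
log2 fold change with its standard error from edgeR for the 34 tested members in the 3 comparisons, glycolysis members in green and other HIF members in purple. Most glycolysis members lie near 0, ANKRD37 lies lowest in R273H against WT at -1.09, and in R273H against G245S 27 of the 34 members lie below 0.

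The spread between replicates followed the same library. The median SD of log2 CPM in G245S was 0.16 for glycolysis members and 0.24 for other HIF members, against 0.14 over all genes. It was 0.11 for both groups in R273H, against 0.14 over all genes. With G245S replicate 3 left out, the SD in G245S was 0.068 and 0.098, against 0.12 over all genes. In the fitted WT libraries it was 0.091 and 0.053, against 0.12 over all genes. Of the 16277 genes, 11643 had a mean of at least 5 CPM, and of the 34 tested members 32 did. The part of the level of a gene in these spreads was not tested.

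Further genes of the pathway, listed by function, gave the same picture of no calls. Of 14 tested genes that control HIF (such as VHL, which tags HIF1A, and its partner ARNT), 0 passed in either mutant, and 1 of 14 was higher in G245S replicate 3 than in both other G245S libraries. HIF1AN, which blocks the activity of HIF1A, had log2 fold changes of 0.23 in G245S and 0.27 in R273H (standard errors 0.102 and 0.103, edgeR's adjusted p = 0.725 and 0.739), and VHL had -0.10 and -0.19. EPAS1, the alpha subunit of HIF2, was at 0.34 in R273H against G245S (edgeR's adjusted p = 0.994). Of 37 other tested hypoxia-induced genes, 25 were higher in G245S replicate 3 than in both other G245S libraries and 21 were highest there among the 8 libraries. Over all genes these shares were 29% and 11.7%. STC2, a secreted glycoprotein, had the highest log2 fold change of the abundant ones in G245S, 0.53 (standard error 0.180, edgeR's adjusted p = 0.604). DDIT4, a brake on mTOR and also a p53 target, was at 80.0 and 68.2 CPM in WT, 72.9, 52.1 and 114 CPM in G245S and 50.1, 52.9 and 61.5 CPM in R273H, with WT replicate 3 at 55.0 CPM. Its log2 fold change of -0.43 in R273H had the lowest adjusted p of these genes (standard error 0.103, edgeR's adjusted p = 0.24).

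G245S replicate 3 was above both other G245S libraries for 4 of 10 tested further isoenzymes and modulators, 4 of 14 genes of pyruvate and lactate handling and 5 of 9 genes of the pentose phosphate pathway, against the 29% of all genes. It was above the mean of the other G245S libraries for 7 of 10, 7 of 14 and 8 of 9 of them, against 46.8% of all genes. TIGAR, the p53 target that lowers fructose 2,6-bisphosphate, was at 30.1 and 29.0 CPM in WT, 26.3, 26.6 and 28.4 CPM in G245S and 25.1, 24.1 and 26.4 CPM in R273H, with WT replicate 3 at 25.2 CPM. Every mutant library lay below both fitted WT libraries, though WT replicate 3 lay among them, with log2 fold changes of -0.14 and -0.22 (standard error 0.103 in each, edgeR's adjusted p = 0.855 and 0.813). MPC1, a subunit of the mitochondrial pyruvate carrier, had -0.33 in G245S (standard error 0.109, edgeR's adjusted p = 0.589) and -0.23 in R273H. Of the genes of the pentose phosphate pathway, the log2 fold changes lay between -0.092 and 0.098 in G245S and between -0.16 and 0.054 in R273H.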

How the data were processed

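Per the methods and labels, the authors filtered reads with fastp 0.24.0, aligned them with STAR 2.7.11 to GRCh38, removed duplicates by molecular identifier and counted reads strand-specifically with featureCounts of Subread 2.1.1 on exons and 3′ UTRs. The table as deposited holds expected counts that were not normalized. A further 9 columns with a value per sample were not used. Counts were rounded to whole numbers. Depth limits precision, and floors of 3 counts cover counting error only.

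Filtering used filterByExpr and scaling used TMM. Groups were compared by the quasi-likelihood test of edgeR (version 4.0.16, R 4.3.3) on the libraries of both groups only, and p-values were adjusted by Benjamini-Hochberg over every gene tested, at a threshold of 0.05. By a depth rule, a WT library below 0.5 times the median total of the rest was left out, here 4096044 counts, which removed WT replicate 3. The study left out 1 WT replicate without naming it. Levels are CPM from TMM over all 9 libraries, and log2 CPM used a prior count of 2. Other software was DESeq2 1.42.0, limma 3.58.1, data.table (version 1.17.8), pandas 2.3.3 with numpy 2.4.6 under Python 3.11.15, and matplotlib 3.10.9. The edgeR fit of each comparison was checked on simulated counts.

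The members and lists were chosen with earlier results of these data known. Shown in full by rule were HIF1A, SLC2A1, HK2, LDHA, PGK1, VEGFA, CA9, PDK1 and ANKRD37, the 3 members of each list with the largest change per comparison, and the 5 of each list with a mean of at least 5 CPM farthest from the other G245S libraries in G245S replicate 3, in all 20 members. Of further lists, the rule took TIGAR and the 2 genes with the largest change per list and mutant, of which the text gives some. Some results are not reported here.

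Alternatives were other choices of WT libraries, each replicate left out in turn, DESeq2, scaling by upper quartile or by library size, no filter, a filter of 10 counts in every library, a fit of all 3 groups, a replicate term, and near-identical copies summed into their member.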

Additional observations from a re-analysis of the deposited data

Results flagged for a closer look

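P4HA1 and MXI1 were marked because every G245S library lay above the mean of the fitted WT libraries and every R273H library below it, a pattern that 0.909% of 16277 genes shared. In both genes the libraries of each mutant overlapped the fitted WT libraries. For P4HA1, WT replicate 3 (29.1 CPM), which is not in that mean, lay below every R273H library. In the direct comparison of R273H with G245S their log2 fold changes were -0.36 and -0.15, and neither passed edgeR's threshold (adjusted p = 0.921 and 0.994). P4HA1 was at 46.7 ± 6.88 CPM in G245S and 36.0 ± 2.16 CPM in R273H (SD, n = 3 each), and MXI1 was at 33.1 ± 1.68 and 29.6 ± 0.708 CPM.

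In WT replicate 3, the library left out of the fits, 4 genes lay well above the level of every other library. The keratins KRT19 and KRT8 were at 31.1 and 50.5 CPM there. LYZ, lysozyme, was at 6.47 CPM against 0.26 CPM or less elsewhere. SLC16A3, the lactate exporter that HIF is known to induce, was at 13.6 CPM against 0.42 CPM or less in the other 8 libraries. For these 4 genes the difference was not tested, since WT replicate 3 is a single library.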

How the results depend on the processing

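No member was called in G245S or R273H against WT under any alternative run. In R273H against G245S the members called were 4 with no filter (SLC2A1, adjusted p = 0.00516, P4HA1, 0.0426, PDK1, 0.00310, and BNIP3, 1.06e-05, all edgeR) and 1 with a replicate term (PDK1, edgeR's adjusted p = 0.0377). Over all genes the shares called in these settings were 0.346% and 0.378%. With no filter the standard errors of those 4 members were smaller than with it. Genes called over the whole table moved more. In G245S against WT they were 20, and 10 with all 3 WT libraries, 3 with WT replicates 1 and 3, 3 with all 3 WT libraries and G245S replicates 1 and 2 alone, 144 with no filter, 76 with the replicate block and 10 to 30 when a replicate was left out. In R273H against WT they were 22, and 4 with WT replicates 1 and 3, 13 with WT replicates 2 and 3, 93 with no filter, 47 with the replicate block and 16 to 29 when a replicate was left out. In R273H against G245S they were 0, and 1 with DESeq2, 125 with no filter, 59 with the replicate block and 0 to 3 when a replicate was left out. The cause was not tested.

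The median of other HIF members in G245S was 0.060, and -0.075 with all 3 WT libraries and G245S replicates 1 and 2 alone, -0.061 with the replicate block, and -0.063 (without G245S replicate 3) to 0.13 when a replicate was left out. The replicate block here is not a check apart from leaving out G245S replicate 3, which was alone in its block. In R273H against WT it was -0.14, and -0.11 with WT replicates 1 and 3, -0.20 with WT replicates 2 and 3, -0.11 with no filter, -0.099 with the stricter filter and -0.17 to -0.075 when a replicate was left out. The median of glycolysis members there was 0.00, and 0.13 with WT replicates 2 and 3. The distance of G245S replicate 3 for glycolysis members was 0.25, and 0.30 with library-size scaling. Replicate numbers were not shown to pair the libraries, since correlations of same-numbered libraries lay between -0.13 and 0.26, and the pairing changed no other call of a member. No called value changed direction. Signs of uncalled members changed in up to 15 of 34.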

Other observations

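Other genes far from the rest of G245S in G245S replicate 3 were looked at after the values were seen. Of the 50 abundant genes farthest above the other G245S libraries there, 3 were members and 3 were on the list of other hypoxia-induced genes. Members made up 32 of the 11643 genes ranked. The other list had 37 tested genes, and how many of them were among those ranked was not counted. BHLHE40, a circadian repressor that HIF is known to induce, ranked 8, at 10.3, 8.20 and 19.7 CPM in G245S. DDIT4 ranked 19, at 1.82 times the other G245S libraries. Genes outside every list led the ranking, ANKRD36BP1 at 11.96, 4.95 and 36.6 CPM and the linker histone H1-4 at 3.15, 1.69 and 6.93 CPM. Members with the ACGTG core in a promoter window differed in that library from the other G245S libraries by a median of 0.39 on the log2 scale, and those without it by 0.28. Within glycolysis members the medians were 0.31 and 0.083, and within other HIF members 0.45 and 0.41. Among the farthest members, BNIP3 (1.01) has the core and SLC2A1 (0.93) does not. Whether the core had a part in this difference was not tested.

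Glycolysis members also stood apart in a second library. In WT replicate 3 they had a median log2 difference of -0.29 from the other WT libraries, and 18 of 19 were lower, beside -0.12 over all genes. Other HIF members were at -0.041 there. The further lists were at -0.39 for the pentose phosphate pathway, -0.30 for pyruvate and lactate handling, -0.24 for other isoenzymes and modulators of glycolysis, -0.14 for other hypoxia-induced genes and -0.088 for genes that control HIF. At its depth, and with the keratins at the level given above, the part of either in this difference was not tested.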
